A study of Rattus norvegicus with 5 samples.

Results

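A list of 9 transcription factors linked to midbrain GABA neurons (Gata2, Gata3, Tal1, Sox14, Npas1, Pax7, Pax3, Meis2 and Rfx4) was followed in single nuclei of the rat ventral tegmental area (VTA). They were 9 of the 32883 genes counted in every library. The list was selected on the detection of these genes in GABA nuclei of the same libraries, so their levels and co-detection are a description, without a test. The study took tissue punches of the VTA from adult male Sprague-Dawley rats that the labels give as treated with saline, made a single library of nuclei from each rat and sequenced the 3′ ends of nuclear RNA. All 5 rats belonged to the saline group, so the libraries hold no second treatment, and each rat is a replicate. Counts are of unique molecular identifiers (UMIs), short tags that mark separate RNA molecules.

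GABA neurons make the transmitter GABA with the enzymes encoded by Gad1 and Gad2 and load it into vesicles with the transporter encoded by Slc32a1. In the embryonic midbrain and hindbrain, the zinc finger factors Gata2 and Gata3 and the helix-loop-helix factor Tal1 direct precursors to the GABA fate, and Tal1 and the GATA proteins bind DNA in shared complexes. The paired box factors Pax7 and Pax3 mark the dorsal midbrain and neural crest instead.

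A barcode was kept as a nucleus with at least 1000 UMIs, more than 200 and fewer than 5000 genes, and mitochondrial genes under 5% of its UMIs, which left 1813 to 9336 nuclei in each library and 22084 in all. A nucleus with at least 2 of Gad1, Gad2 and Slc32a1 detected was called a GABA nucleus. There were 391, 1849, 294, 315 and 558 such nuclei in rats 1 to 5, 3407 in all, and their median depth ran from 1772 UMIs in rat 1 to 9385 UMIs in rat 4. By pan-neuronal markers, between 14.3% of them in rat 1 and 73.7% in rat 4 were typed as neurons, while 514 were typed as oligodendrocytes, 179 as other glia and 1133 could not be typed. Pairs of libraries shared 0 to 16 barcodes. Mitochondrial genes held a median of 3.95% of the UMIs of GABA nuclei in rat 1, against 0.125% to 1.32% in the other rats. In rat 1 the mitochondrial limit removed 3121 of 5218 barcodes with at least 1000 UMIs. The library of rat 3 stood apart as well. RNA outside nuclei, read from its barcodes under 100 UMIs, held Slc32a1 at 7.46 UMIs per 10000 against 1.03 to 1.93 in the other rats and Gata3 at 0.972 against 0.0543 to 0.16. Gata2 there was at 0.704 against 0.0375 to 0.0925. Values that rest on rat 3 are set beside those of the other rats or also given without it.

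RefSeq promoters (build GRCr8) were found for 8 of the 9 factors, Meis2 being the exception. The 250 bases before the start are printed for Gata2, Gata3, Tal1, Pax7 and Pax3, members of the co-detected groups, to show what regulatory words lie next to them, with any of 6 short words in capitals on either strand.
Gata2, chr4:122216031-122216280, plus strand: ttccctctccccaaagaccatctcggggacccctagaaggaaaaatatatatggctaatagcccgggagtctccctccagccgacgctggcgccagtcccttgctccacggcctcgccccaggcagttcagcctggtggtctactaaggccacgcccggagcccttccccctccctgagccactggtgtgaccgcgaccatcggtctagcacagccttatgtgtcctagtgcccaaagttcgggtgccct
Gata3, chr17:73553298-73553547, plus strand: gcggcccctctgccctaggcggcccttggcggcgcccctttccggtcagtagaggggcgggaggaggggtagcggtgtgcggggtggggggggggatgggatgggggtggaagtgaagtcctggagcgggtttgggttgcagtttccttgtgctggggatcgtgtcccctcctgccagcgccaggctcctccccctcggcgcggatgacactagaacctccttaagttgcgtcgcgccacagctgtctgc
Tal1, chr5:133824214-133824463, plus strand: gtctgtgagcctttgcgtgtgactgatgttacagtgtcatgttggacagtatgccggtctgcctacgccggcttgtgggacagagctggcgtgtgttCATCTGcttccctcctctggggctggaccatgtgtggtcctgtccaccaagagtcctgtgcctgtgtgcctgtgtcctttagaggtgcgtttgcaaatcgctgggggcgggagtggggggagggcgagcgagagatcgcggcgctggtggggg
Pax7, chr5:157381122-157381371, minus strand: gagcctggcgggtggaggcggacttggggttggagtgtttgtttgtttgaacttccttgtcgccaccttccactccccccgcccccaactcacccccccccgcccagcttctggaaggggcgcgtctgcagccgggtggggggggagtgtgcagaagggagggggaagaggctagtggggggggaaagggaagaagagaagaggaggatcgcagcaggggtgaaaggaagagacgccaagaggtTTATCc
Pax3, chr9:87112532-87112781, minus strand: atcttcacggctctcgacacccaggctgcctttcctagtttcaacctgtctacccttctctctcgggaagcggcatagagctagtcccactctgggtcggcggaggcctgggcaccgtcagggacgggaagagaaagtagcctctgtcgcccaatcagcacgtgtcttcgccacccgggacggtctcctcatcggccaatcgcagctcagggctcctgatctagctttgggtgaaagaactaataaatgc
The words searched were GATAA for GATA factors, CAGATG for TAL1 with E proteins, TAATTA for homeodomains, TGACAG for MEIS factors, GTTGCC for RFX factors and ACAATG for SOX factors. The promoters of Gata2, Gata3 and Pax3 held none of them in this window. Of the windows not printed, those of Sox14 and Npas1 held none either. Rfx4 had 8 entries, of which some held GATAA, in part together with TGACAG. Tal1 held CAGATG on the reverse strand starting 153 bases before the start, and Pax7 held GATAA on the reverse strand starting 6 bases before it. Of 33469 promoter windows of the same length, 14% held CAGATG and 23.5% held GATAA. The printed windows were rich in G and C, from 58% in Pax3 to 68.4% in Gata3, against a median of 51.2% over all windows.

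Gata3, the more often detected of the GATA factors, was found in 366 of the 3407 GABA nuclei. Its level was 0.206, 0.245, 2.05, 0.312 and 0.219 UMIs per 10000 in GABA nuclei of rats 1 to 5, a mean of 0.606 ± 0.807 (SD, n = 5) and of 0.245 without rat 3. In all other nuclei, those with fewer than 2 of the 3 GABA genes, it was 0.0433, 0.0662, 0.843, 0.0341 and 0.0489. Gata3 was higher in GABA nuclei in 5 of 5 rats, and rat 3 was the highest in both groups of nuclei by a wide margin.

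Gata2, its close relative, was detected in 154 GABA nuclei. The levels were 0.106, 0.0922, 0.449, 0.114 and 0.0763 per 10000 in GABA nuclei and 0.0361, 0.0575, 0.229, 0.0216 and 0.0398 in other nuclei. Again rat 3 was highest in both, and the other nuclei of rat 3 exceeded the GABA nuclei of the remaining rats. RNA outside nuclei held Gata2 at 0.704 in rat 3, above both groups of its nuclei. In the remaining rats it was at 0.0375 to 0.0925, below the GABA nuclei of each.

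Tal1 and Sox14, a SoxB factor, followed another order of rats. Tal1 was found in 263 GABA nuclei, at 0.0765, 0.169, 0.0421, 0.208 and 0.247 per 10000 in rats 1 to 5 against 0.0578, 0.0607, 0.0187, 0.0447 and 0.0788 in other nuclei. Sox14, in 188 nuclei, ran at 0.0589, 0.1, 0.126, 0.156 and 0.224 per 10000 against 0.0144, 0.0254, 0.0347, 0.0156 and 0.0149. Rat 3, the highest for both GATA factors, was the lowest of the 5 for Tal1, and only 3 of its GABA nuclei held a Tal1 UMI. RNA outside nuclei held Tal1 at 0.113 in rat 1 and 0.107 in rat 3, above the GABA nuclei of these rats. It held Sox14 at 0.137 in rat 3, again above the GABA nuclei. In the remaining rats each of the factors was lower outside nuclei than in GABA nuclei. Sox14 had the largest geometric mean ratio of GABA to other nuclei among the 9 factors, 6.15-fold, with no overlap between the groups. The other nuclei, 18677 in all, included 9129 oligodendrocytes, where Sox14 was at 0.00723 ± 0.00512 (SD, n = 5). In glutamate neurons Sox14 was at 0.0551 ± 0.0665 (SD, n = 5), up to 0.159 in the highest rat, so this class overlapped GABA nuclei. Of the 14497 genes found in at least 100 nuclei, 1.45% were higher in GABA nuclei without overlap over the 5 rats, as were 2 of the 9 factors, Sox14 and Meis2. The factors were selected on their detection in GABA nuclei, so nothing is read from that count.

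Pax7 was detected in 385 GABA nuclei and Pax3 in 245. In GABA nuclei Pax7 was at 0.153, 0.633, 0.112, 0.565 and 0.297 per 10000, against 0.0253, 0.116, 0.032, 0.13 and 0.106 in other nuclei. Pax3 was at 0.224, 0.71, 0.603, 0.118 and 0.0966 against 0.0433, 0.114, 0.243, 0.0266 and 0.0431. Both were higher in GABA nuclei in 5 of 5 rats, but their order over rats differed, and rat 3 was the lowest for Pax7 and the second highest for Pax3.

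Meis2, a homeodomain factor of the TALE class that acts with PBX and PAX partners, was the most often detected of the 9, in 704 GABA nuclei. It stood at 1.34, 3.29, 1.44, 4.26 and 3.2 UMIs per 10000 in GABA nuclei and at 0.348, 0.861, 0.531, 0.364 and 0.643 in other nuclei. The lowest GABA value exceeded the highest value of the other nuclei pooled, and the geometric mean ratio was 4.71-fold.

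Npas1, a bHLH-PAS factor best known from forebrain interneurons and pallidal neurons, was found in 189 GABA nuclei. Its level was 0.153, 0.0942, 0.0421, 0.166 and 0.376 per 10000 in GABA nuclei against 0.0993, 0.0258, 0.0347, 0.0582 and 0.0796 in the others, again higher in 5 of 5 rats. RNA outside nuclei held Npas1 at 0.277, 0.0943, 0.044, 0.174 and 0.113, which was not below GABA nuclei in rats 1, 2, 3 and 4. Rfx4, a winged-helix factor of neural tube and cilia genes, differed from the other 8. It was at 0.271, 0.265, 0.196, 0.111 and 0.33 in GABA nuclei and at 0.39, 0.283, 0.0827, 0.2 and 0.262 in other nuclei, higher in GABA nuclei in 2 of 5 rats, with a geometric mean ratio of 1.02. That ratio was 0.594 once nuclei typed as glia were left out and 0.822 without rat 3.

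**Figure D1:**
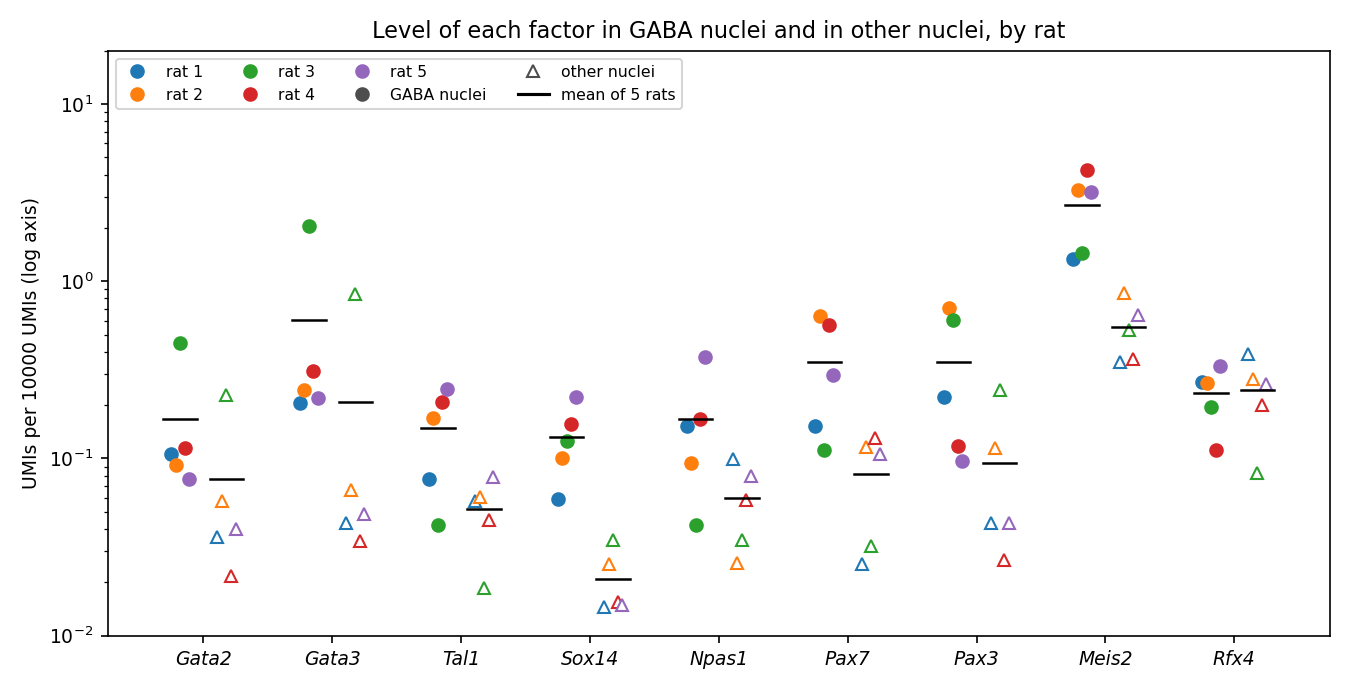
Level of each factor (UMIs per 10000 UMIs, log axis) in GABA nuclei (filled circles) and other nuclei (open triangles), a colour for each rat and a line at the mean of 5 rats. Sox14 and Meis2 show no overlap between the groups, Rfx4 overlaps between them, and rat 3 lies far above the rest for Gata2 and Gata3.

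Shares of nuclei with a UMI depend on depth and on RNA from outside the nucleus. Any of the 9 factors was detected in 30.4%, 50.7%, 52.4%, 64.1% and 63.8% of the GABA nuclei of rats 1 to 5. In nuclei with exactly 2 of the GABA genes the mean share was 47.9% ± 14.2 (SD, n = 5), and just outside the threshold, in nuclei with exactly 1, it was 27.3% ± 5.5. Their median depths were 3977 and 2891 UMIs. For comparison, the mean share of oligodendrocytes without any GABA gene, at a median of 2786 UMIs, was 0.65% for Gata2, 0.88% for Gata3, 0.328% for Tal1, 0.192% for Sox14, 0.497% for Pax7, 0.427% for Pax3, 2.07% for Meis2, 0.49% for Npas1 and 0.532% for Rfx4. These oligodendrocytes were picked for holding no GABA gene, and GABA nuclei for holding at least 2. A lower share in them is thus favoured by the choice and cannot measure RNA from outside the nucleus. Without rat 3 the shares of Gata3 and Pax3 were 0.472% and 0.22%. All were below the shares in GABA nuclei, which were deeper, at a median of 4860 UMIs, 5.18%, 13.1%, 7.36%, 6.11%, 8.97%, 5.61%, 19.7%, 6.01% and 6.5% in the same order. The share of Gata3 in GABA nuclei was 10.05% without rat 3. After thinning every nucleus to 1000 UMIs the shares in GABA nuclei, in that order, were 1.4%, 4.28%, 1.56%, 0.95%, 2.74%, 2.65%, 12%, 1.34% and 1.55%. In the oligodendrocytes at this same depth they were 0.399%, 0.539%, 0.187%, 0.0921%, 0.117%, 0.286%, 1.1%, 0.192% and 0.209%. Without rat 3 the thinned shares in GABA nuclei and oligodendrocytes were 0.897% and 0.29% for Gata2, 2.03% and 0.256% for Gata3, and 1.95% and 0.0442% for Pax3.

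Elsewhere in the tissue several factors reached higher levels than in GABA nuclei. Rfx4 was highest in astrocytes, at 2.58 ± 1.21 per 10000 (SD, n = 5), and was detected in 416 of 906 of them. Rat 3 was the lowest, at 0.746, and the mean without it was 3.04. GABA nuclei, some of them typed as glia, were at 0.235 ± 0.0839, beside 0.135 ± 0.0978 in dopamine neurons, 0.0985 ± 0.0521 in neurons of no other named class and 0.0628 ± 0.0483 in glutamate neurons. The share of nuclei with a UMI was 8.42% ± 7.48 in dopamine neurons and 6.5% ± 3.29 in GABA nuclei, so the order of these classes depended on the measure. Tal1, which also acts in blood and endothelial lineages, was highest in microglia, at 1.76 ± 0.356 (SD over the 4 rats with at least 10 such nuclei), followed by vascular nuclei at 0.455 ± 0.0499. The lowest rat in microglia, 1.33, lay above every GABA value, so Tal1 did not separate GABA neurons from these classes.

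Gata2 was at 0.796 ± 0.307 in vascular nuclei (n = 4 rats), where Gata3 was at 0.0229. In serotonin neurons, called by at least 2 of Tph2, Slc6a4 and Fev without meeting the GABA rule, Gata2 was at 0.915 ± 0.084 and Gata3 at 2.36 ± 2.24 (n = 3 rats with enough nuclei, 52 nuclei), or 1.07 for Gata3 without rat 3. Serotonin neurons of the hindbrain raphe depend on both factors in development. Sox14 and Pax7 had no UMI in any of the 65 serotonin nuclei of the 5 rats, which allows up to 0.0852 per 10000 (exact Poisson bound, counting error only). Gata2 had none in 353 microglia, with a bound of 0.0441. Neighbouring classes in the order for Gata3 were GABA nuclei, at 0.606 ± 0.807, and glutamate neurons, at 0.574 ± 1.02. They come from the same rats and were not compared within rats. Without rat 3 the means were 0.245 in GABA nuclei and 0.118 in glutamate neurons.

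The paired box factors parted in oligodendrocyte precursor cells. Pax3 was at 0.282 ± 0.0933 there (n = 5), between 0.208 and 0.41 in every rat, while Pax7 was at 0.00729 ± 0.0104, from 3 UMIs in 744 nuclei. Meis2 also reached 1.26 ± 0.457 in these cells and 0.597 ± 0.287 in astrocytes. In neurons of no other named class Meis2 was at 2.34 ± 1.69, which overlapped its GABA level of 2.71 ± 1.27, and in rat 2 it was higher there, 4.95 against 3.29. Npas1 was at 0.174 ± 0.177 in neurons of no other named class. That mean rested on rat 1, at 0.473, and without it was 0.099, below the 0.17 of GABA nuclei over the same rats. With rats 2, 3, 4 and 5 left out in turn it stayed above GABA nuclei, at 0.202 against 0.184, 0.206 against 0.197, 0.194 against 0.166 and 0.168 against 0.114. Rat 5 was the highest in GABA nuclei, at 0.376. The level of this class over 5 rats and those in precursor cells, 0.119 ± 0.105, and glutamate neurons, 0.12 ± 0.12, lay within the spread of the GABA level of Npas1, 0.166 ± 0.127. Pax7 was at 0.51 ± 0.382 in neurons of no other named class, which include nuclei with a single GABA gene, and this overlapped its GABA level of 0.352 ± 0.237.

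**Figure D2:**
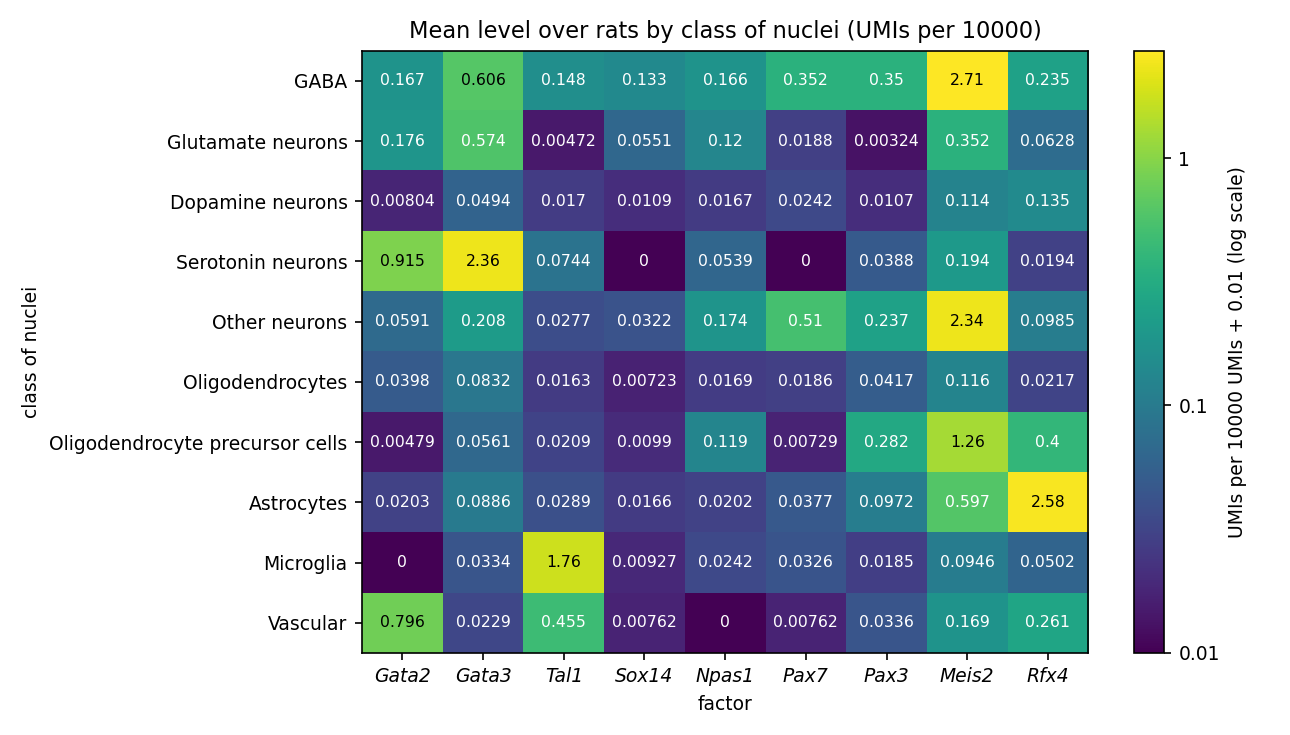
Mean level over rats (UMIs per 10000, on a log colour scale after adding 0.01) of each factor by class of nuclei, with classes of under 10 nuclei in a rat left out of that rat. Rfx4 peaks in astrocytes at 2.58, Tal1 in microglia at 1.76, and Gata2 and Gata3 in serotonin neurons.

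Within GABA nuclei the factors fell into groups that were found together. Of 3407 nuclei, 1638 held none of the 9, 1043 held 1, 532 held 2, 154 held 3, 37 held 4 and 3 held 5. Each pair was set beside the number expected if the factors were spread independently within each library, and the interval given is an exact Poisson interval of 95% that covers counting error only. As nuclei of a library are not replicates, it is no test. Because deeper nuclei detect more genes, the expectation was also taken within 4 bins of depth.

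Gata2 and Gata3 shared 64 nuclei where 18.4 were expected, a ratio of 3.48 (interval 2.68 to 4.44) and of 2.81 within depth bins. The counts were 6, 29, 12, 9 and 8 in rats 1 to 5, and each was above expectation. Gata2 was accompanied by Gata3 in 41.6% of its nuclei. Leaving out rat 3 gave a ratio of 3.82. After thinning to 1000 UMIs it was 3.31, from 6 nuclei, and with all 3 GABA genes required it was 2.66.

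Gata3 and Tal1 shared 94 nuclei, 3.43 times the number expected (2.77 to 4.2), at 4, 51, 3, 13 and 23 in the 5 rats. Gata3 and Sox14 shared 65, a ratio of 3.11 (2.4 to 3.96), in 4, 21, 1, 14 and 25 nuclei. Tal1 and Sox14 shared 47, a ratio of 2.59 (1.91 to 3.45), in 1, 17, 0, 9 and 20. Within depth bins the 3 ratios were 2.43, 2.29 and 1.91. With all 3 GABA genes required they were 2.75, 1.93 and 1.59. Thinning to 1000 UMIs left 7, 1 and 1 nuclei with both factors, ratios of 5.81, 1.24 and 1.42, too few nuclei to place the pairs with Sox14 above expectation at that depth. All 6 pairs among Gata2, Gata3, Tal1 and Sox14 were above expectation in the pooled counts, the lowest being Gata2 with Sox14 at 2.17 (1.33 to 3.35). Only 3 GABA nuclei of rat 3 held Tal1, and all 3 also held Gata3. Of the 697 nuclei with any of these 4 factors, 228 had at least 2 of them, 43 at least 3 and 3 all 4.

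Pax7 and Pax3 shared 132 nuclei against 31 expected, a ratio of 4.26 (3.56 to 5.05) and of 2.93 within depth bins. The counts were 3, 118, 3, 5 and 3, so rat 2 held most of them, and without rat 2 the ratio was 3.19. It was 4.24 after thinning, from 18 nuclei, and 2.69 in nuclei typed as neurons. Pax7 was found in 53.9% of nuclei with Pax3, and in 22.6% (14 of 62) without rat 2. Meis2 joined Pax7 in 151 nuclei, a ratio of 1.87 (1.58 to 2.19) seen above 1 in 5 of 5 rats and 1.57 within depth bins, or 1.44 in nuclei typed as neurons. It joined Pax3 in 70, a ratio of 1.39 (1.08 to 1.75) that came to 1.15 within depth bins and to 1.05 in nuclei typed as neurons. Its ratio with Sox14 was 0.414 (0.241 to 0.662). With Gata2 it was 0.947, from 0.156 in rat 5 to 1.3 in rat 2. With Gata3 it was 0.947, with Tal1 0.776 and with the 4 GATA group factors as a set 0.754, the last below 1 in 4 of 5 rats. Without rat 2 these 4 ratios were 0.614, 0.743, 0.334 and 0.553.

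The GATA group and the paired box group seldom met. With the 4 factors Gata2, Gata3, Tal1 and Sox14 as one set and Pax7 and Pax3 as the other, 670 GABA nuclei held only the first set, 471 only the second, 27 both and 2239 neither. The 27 stood against 104.5 expected, a ratio of 0.258 (0.17 to 0.376), and 0.208 within depth bins. By rat there were 0, 15, 6, 3 and 3 nuclei with both sets, below expectation in 5 of 5 rats, and the ratio without rat 3 was 0.22. No nucleus held both Gata2 and Pax7, where 17.7 were expected, which allows a ratio of up to 0.209. The pairs of Pax3 with the GATA factors rested on few nuclei outside rat 2: without that rat the ratio was 0.807 for Gata2 (3 nuclei, all in rat 3) and 0.648 for Gata3 (7 nuclei). Over the 5 rats these ratios were 0.366 and 0.333, and without rat 3 they were 0.109 and 0.148. Among the 1581 nuclei typed as neurons, a restriction chosen after seeing the data, the ratio of the sets was 0.139. Over all GABA nuclei with at least 2 UMIs required for detection it was 0.0431, and with no maximum of genes it was 0.49.

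Npas1 and Rfx4 were placed in neither set. Npas1 shared 46 nuclei with the GATA set, a ratio of 1.1 (0.804 to 1.46) that fell to 0.869 within depth bins, and 18 with the paired box set, 0.696 (0.412 to 1.1). With Sox14 and with Pax7 its ratios were lower, 0.414 (0.152 to 0.901) and 0.43 (0.197 to 0.816). Rfx4 had ratios of 1.34 with the GATA set (1.04 to 1.7), or 1.09 within depth bins and 1.46 in nuclei typed as neurons, and 1.13 with the paired box set (0.808 to 1.53), or 0.884 within depth bins. Its ratio with Tal1 was 1.81 (1.28 to 2.49), in 38 nuclei, or 1.43 within depth bins and 1.9 in nuclei typed as neurons.

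**Figure D3:**
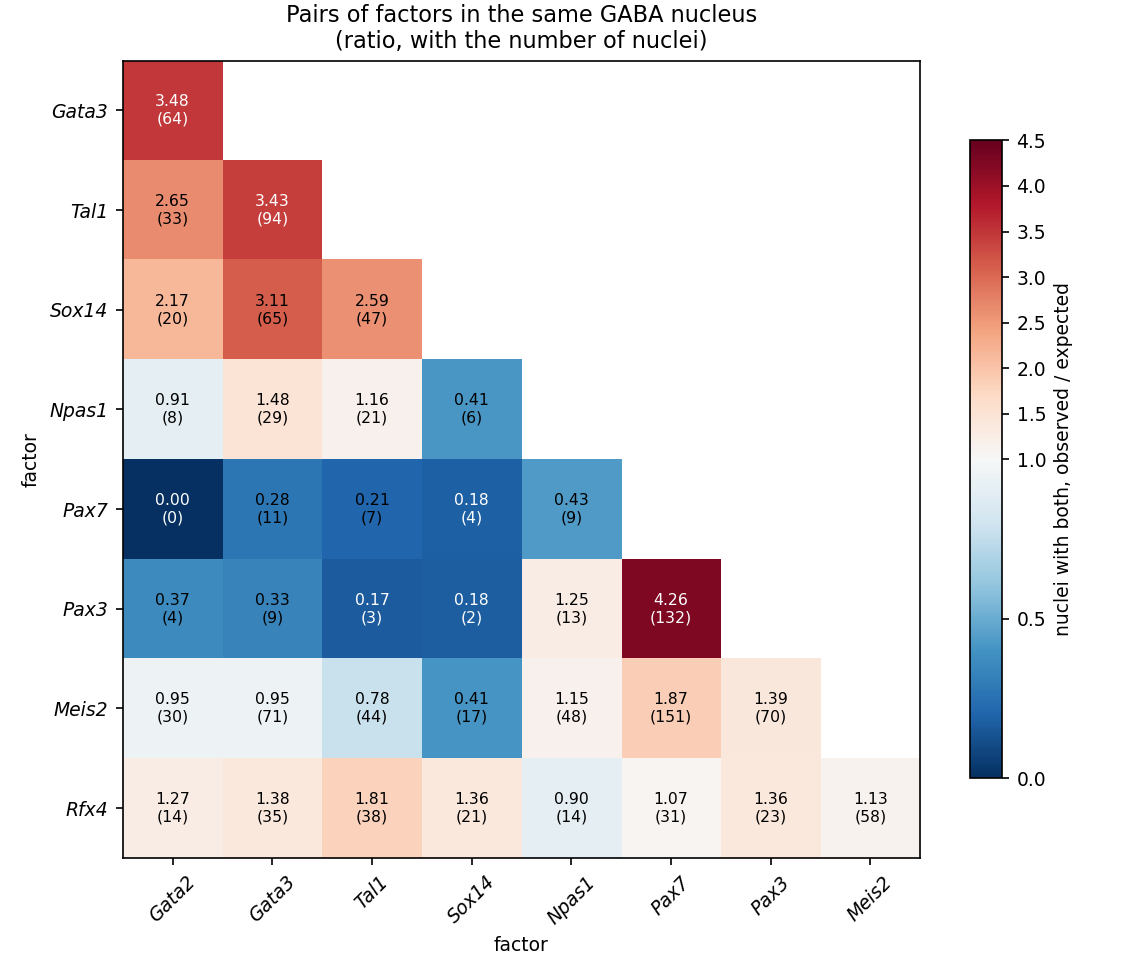
Nuclei with both factors of a pair, observed over expected within each library, with the number of nuclei in brackets; red marks ratios above 1 and blue below 1. Ratios from 2.17 to 3.48 join Gata2, Gata3, Tal1 and Sox14, Pax7 and Pax3 reach 4.26, and every pair across these groups is below 0.4 over the 5 rats pooled.

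**Figure D4:**
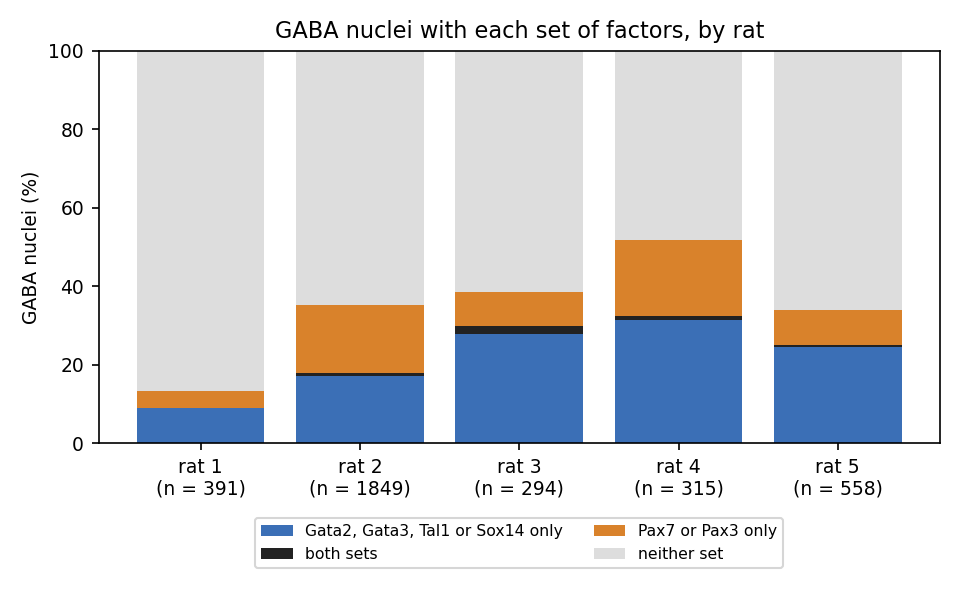
Share of the GABA nuclei of each rat (percent, n nuclei under each bar) with factors of the GATA set only, the paired box set only, both or neither. Nuclei with both sets are the thin black band, at most 2.04% (rat 3).

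The balance of the groups varied among rats. The GATA set alone was in 8.95%, 17.1%, 27.9%, 31.4% and 24.6% of GABA nuclei of rats 1 to 5, and the paired box set alone in 4.35%, 17.3%, 8.5%, 19.4% and 8.78%. Rat 1, whose GABA nuclei were the shallowest, the least often typed as neurons and the highest in mitochondrial UMIs, had the lowest share of each. Rat 4, the deepest, had the highest. In a punch of tissue, fewer nuclei of a type and less RNA per nucleus cannot be told apart from the level alone.

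For each factor the genes most like it were ranked over nuclei by the median log2 ratio, across the libraries with at least 10 positive nuclei, of their level in GABA nuclei with and without the factor. This is a description across nuclei that share libraries. The top gene was Gata3 for Gata2 (1.84 over 5 rats), Egflam for Gata3 (1.31 over 5), Gata3 for Tal1 (1.59 over 4), and Cacna2d3, a calcium channel subunit, for Sox14 (1.92 over 3). It was Ebf2 for Pax7 (3.26 over 4), Dach1 for Pax3 (2.48 over 4), Egfr for Meis2 (2.41 over 5), and Glra1, a glycine receptor subunit, for Npas1 (1.33 over 4). Rfx4 was led by Slc39a12 (1.94 over 4), an astrocyte zinc transporter. Gata2 was also followed by Igfbp7 (1.23) and Epas1 (1.08), genes of vascular cells. The part of RNA from other cells in the lists of Rfx4 and Gata2 was not tested.

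To ask what else separates the groups, UMI counts were summed per rat over GABA nuclei with the GATA set only (GATA nuclei: 35, 317, 82, 99 and 137) and with the paired box set only (PAX nuclei: 17, 319, 25, 61 and 49) and compared with edgeR's quasi-likelihood test, the rat as a block. Of 7579 genes tested, 559 passed at an adjusted p under 0.05, 231 higher in GATA nuclei and 328 higher in PAX nuclei, or 7.38% of those tested, 3.05% and 4.33% by direction. The 559 include 6 of the 9 factors, which leaves 553 other genes. Median depths over the pooled nuclei were close, 7707.5 UMIs in GATA nuclei and 7629 in PAX nuclei. By rat they were 7295, 7595, 2447, 10409 and 8978 in GATA nuclei and 8284, 7432, 1845, 9736 and 7884 in PAX nuclei. Meis2, which did not define the groups, was at 1.09, 1.49, 0.875, 1.53 and 0.592 UMIs per 10000 in GATA nuclei of the 5 rats and at 2.66, 6.93, 2.48, 10.8 and 8.55 in PAX nuclei, without overlap. Gad2 was at 7.03, 5.27, 3.78, 5.16 and 5.43 in GATA nuclei and at 3.58, 2.31, 1.24, 2.27 and 2.46 in PAX nuclei. Gad1 and Slc32a1 overlapped between the groups, Gad1 at 3.02 to 3.76 in GATA nuclei and 2.2 to 7.25 in PAX nuclei, and Slc32a1 at 0.386 to 3.78 and 0.438 to 6.54. As the GABA genes defined GABA nuclei and Meis2 was on the chosen list, none is given a test.

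The gene furthest towards PAX nuclei was Ebf2, a helix-loop-helix factor of the EBF family. Its level was 0.117, 0.129, 0.676, 0.168 and 0.0411 in GATA nuclei and 6.99, 7, 15.9, 4.73 and 5.45 in PAX nuclei, 44.8-fold higher in PAX nuclei (log2 ratio -5.48 ± 0.251 SE, adjusted p = 2.51e-10, higher in 5 of 5 rats). Sox6, a SoxD factor, followed at -3.91 ± 0.507 (adjusted p = 4.09e-05), from 0.159 to 1.48 in GATA nuclei against 3.74 to 18.7. Neither gene overlapped between groups over the 5 rats, which held for 2.3% of all genes tested. Pde3a, a cyclic nucleotide phosphodiesterase (-3.66 ± 0.163), Rxfp1, a relaxin receptor (-3.83 ± 0.275), the growth factor receptor gene Egfr (-3.58 ± 0.248) and Chrna5, a nicotinic acetylcholine receptor subunit (-3.55 ± 0.327), were also higher in PAX nuclei, with adjusted p from 2.51e-10 to 1.02e-06. Chrna5 was at 0.0198 to 0.278 in GATA nuclei and at 1.16 to 1.82 in PAX nuclei. The remaining 4 of the 10 were Fam163a, Pdzd2, Entpd3 and Sel1l3, between -3.3 and -3.17.

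Towards GATA nuclei the largest difference was in Egflam, an extracellular matrix gene, at 1.52, 0.768, 0.517, 0.248 and 0.756 in GATA nuclei and at 0, 0.0563, 0, 0.0324 and 0.0786 in PAX nuclei (log2 ratio 3.66 ± 0.308, adjusted p = 3.66e-07). Transcription factor genes on this side included Bcl11b, of the zinc finger class (3.12 ± 0.372), Ikzf1, which encodes Ikaros (2.4 ± 0.418, adjusted p = 0.000861), and Tox, of the HMG-box class (2.31 ± 0.215). Ikzf1 was the least even of them, at 0.288 to 1.31 in GATA nuclei and up to 0.707 in PAX nuclei, and neither it nor Gabrb2 passed without the rat as a block. Dgkg, a diacylglycerol kinase (2.84 ± 0.241), the serotonin receptor gene Htr4 (2.31 ± 0.21), the orexin receptor gene Hcrtr2 (2.26 ± 0.253), Car10 (2.24 ± 0.217), the homeobox factor gene Zfhx3 (1.94 ± 0.212) and Gabrb2, a GABA-A receptor subunit (1.9 ± 0.192), completed the 10, with adjusted p from 3.84e-07 to 8.44e-06. Car10 was at 5.95 to 16.9 in GATA nuclei and at 0.333 to 3.51 in PAX nuclei.

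**Figure D5:**
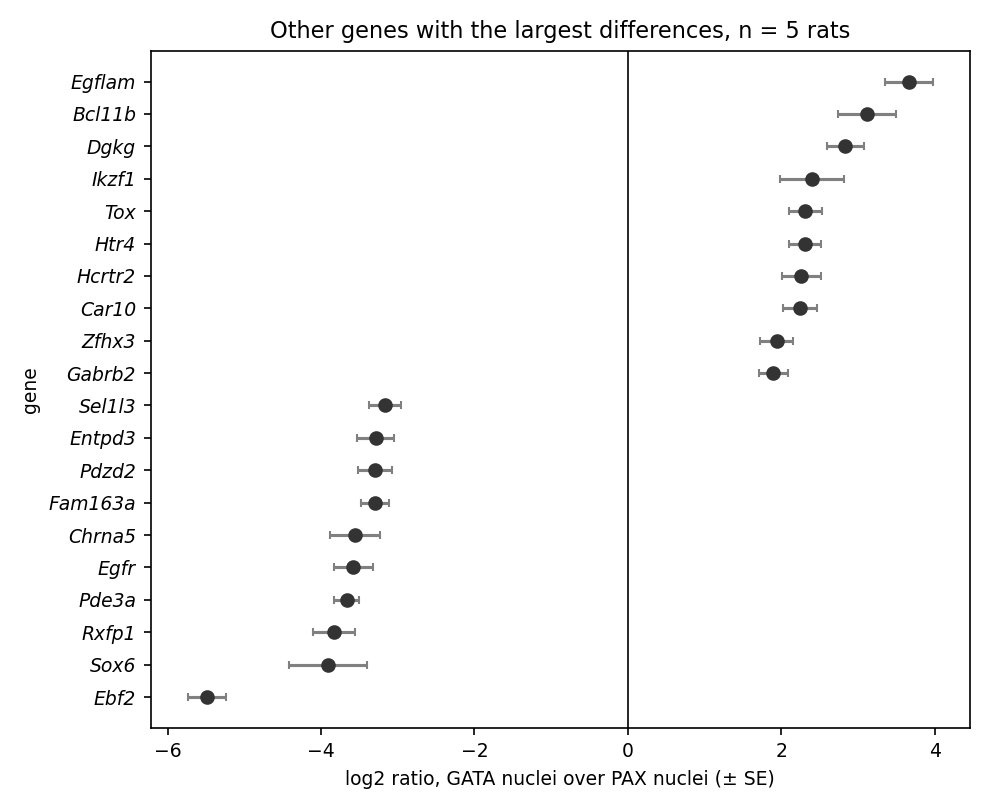
Log2 ratio of GATA nuclei over PAX nuclei (edgeR, ± SE, n = 5 rats) for the 10 genes with the largest difference in each direction, the factors themselves left out. Ebf2 lies furthest to the PAX side at -5.48 and Egflam furthest to the GATA side at 3.66.

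Lists of related genes were read against these shares. Of 8 measured partners of GATA factors and TAL1, Lmo4 was higher in GATA nuclei (1.56, adjusted p = 4.86e-05) and the related Lmo1 (-1.1) and the E protein genes Tcf4 (-1.51) and Tcf12 (-0.77) were higher in PAX nuclei. Of 6 measured relatives and partners of PAX and MEIS factors, Meis1 (-1.76) and Pbx3 (-0.84) were higher in PAX nuclei and 4 did not pass. Of 10 other regional factors, Foxp1, Zfhx3 and Zfhx4 were higher in GATA nuclei, Ebf2 in PAX nuclei and 6 did not pass. The median log2 ratios of the 3 lists were -0.23, -0.43 and -0.01, beside 0.01 over all genes tested. No gene of the NPAS1 list passed (0 of 5), and of the RFX and SOXB list only Sox2 did (1.16, 1 of 5, higher in GATA nuclei), with list medians of -0.2 and 0.16. Of 11 forebrain GABA factors, such as the Dlx genes, 0 passed the filter on low counts. At an unadjusted p this test called 1195 genes under 0.05 in all, and DESeq2 called 438 at the adjusted threshold.

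Among 8 measured peptides and markers of GABA neurons, Calb1 (1.5), Pnoc (1.33) and Vgf (0.83) were higher in GATA nuclei, and Nos1 (-1.89), Penk (-1.51) and Reln (-2.05) in PAX nuclei. Nos1, the neuronal nitric oxide synthase, was at 0.362 to 1.63 in GATA nuclei and at 1.5 to 2.43 in PAX nuclei. Of 6 measured receptors, the glycine receptor gene Glra3 (1.63) and the serotonin receptor gene Htr2c (1.1) were higher in GATA nuclei, and Oprm1 (-1.13, adjusted p = 6.13e-05), Drd2 (-1.05) and Tacr3 (-1) in PAX nuclei. Oprm1 encodes the mu opioid receptor, and it stood at 0.816, 0.951, 0.398, 1.03 and 1.46 in GATA nuclei against 0.832, 2.03, 0.884, 2.3 and 3.49 in PAX nuclei, lower in GATA nuclei in 5 of 5 rats although the ranges overlapped. The median log2 ratio was 0.03 for the peptides and markers and -0.38 for the receptors. Of the list genes named, Pnoc had its direction in 3 of 5 rats and Penk, Reln, Glra3, Htr2c, Tacr3, Pbx3 and Tcf12 in 4 of 5.

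Without the rat as a block 90 genes passed. Leaving out rat 2 gave 340 and leaving out rat 5 gave 367, while leaving out rat 3 gave 604 and leaving out nuclei with any serotonin gene gave 581. Oligodendrocyte markers summed to 13.8 to 74.3 UMIs per 10000 in GATA nuclei and 17.2 to 85 in PAX nuclei, all 8 of them detected in each. Dopamine markers, 8 of 8 detected in each, summed to 1.57 to 5.44 and 0.531 to 10.8, and serotonin markers, 3 of 3, to 0.148 to 1.63 and 0.0486 to 0.666. Markers of oligodendrocyte precursor cells were higher in PAX nuclei in 5 of 5 rats, 0.707 to 9.74 against 0.597 to 3.81, with Gpr17 at 0 in PAX nuclei. Pan-neuronal markers were also higher there in 5 of 5 rats, 36.3 to 66.4 against 23.4 to 44.7. From 20% to 83.8% of GATA nuclei and from 29.4% to 88.5% of PAX nuclei were typed as neurons. Their part in the differences was not tested.

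The same test compared GABA nuclei with Npas1 (15, 71, 3, 25 and 75 nuclei) and without it. Of 8575 genes, 492 passed (5.74%), 83 higher with Npas1 (0.968%) and 409 higher without it (4.77%). Npas1 and Pax7 are among the 492. The groups were not alike in typing: 33.3% to 92% of nuclei with Npas1 and 12.5% to 72.1% of those without it were typed as neurons. This share was higher with Npas1 in every rat but rat 3. From 0% to 20% and from 7.56% to 33.5% were typed as glia. Nor were they alike in depth: the median was 9910 UMIs against 1668.5 in rat 1 and 12355 against 9202 in rat 4. Oligodendrocyte markers summed to 6.49 to 42 with Npas1 and 26.6 to 148.3 without it. Dopamine markers (0 to 3.1 against 2.68 to 7.97), astrocyte markers (0.608 to 7.39 against 1.08 to 11.6) and vascular markers (0 to 2.2 against 1.55 to 4.22) were lower with Npas1 in 5 of 5 rats as well, and their part was not tested. The values of 0 were those of rat 3, where the group with Npas1 held 3 nuclei. When each nucleus with Npas1 was set beside the nucleus of the same rat nearest in UMI total, 9 genes other than Npas1 passed. Glra1, a glycine receptor subunit, was higher with Npas1 (1.58 ± 0.283, adjusted p = 0.0159). The other 8 were lower: Bnc2 (-2.91), Ebf2 (-2.67), Ddc (-2.26), which encodes the decarboxylase of dopamine and serotonin synthesis, Prox1 (-2.07), Nfib (-1.7), Ebf3 (-1.69), Sorcs1 (-1.6) and Tcf4 (-1.24). Ddc, Prox1, Nfib and Sorcs1 are outside the naming rule and were named after their values were seen.

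Over all nuclei Glra1 was at 1.56, 0.798, 0.927, 1.25 and 0.915 UMIs per 10000 with Npas1 and at 0.359, 0.223, 0.213, 0.495 and 0.41 without it, a log2 ratio of 1.52 ± 0.206 (adjusted p = 1.55e-08, 5 of 5 rats). The group of rat 3 with Npas1 was 3 nuclei with 10791 UMIs in sum. The direction in that rat rested on 1 or 2 UMIs for Glra1, Mctp2, Cpne9, Slc7a12, Slc27a2 and Alg6. For the 10 genes named below as lower with Npas1 it rested on 0 UMIs. Mctp2 (1.86 ± 0.26), Cpne9 (1.04 ± 0.225) and Vwc2 (0.95 ± 0.204) were higher too. With matched depths, where the group without Npas1 was far smaller, they stood at 1.45, 0.93 and 0.65 and did not pass. Cdh18, Nell1 and Gabrb2, at 0.93, 0.92 and 0.9, stood at 1.12, 0.65 and 0.93 there and did not pass either. Slc7a12, Slc27a2 and Alg6, at 0.97, 0.91 and 0.9, stood at 0.84, 0.75 and 0.85 once nuclei typed as glia were left out and did not pass (adjusted p from 0.0749 to 0.0812). Slc27a2, the only one of these that could be tested with matched depths, was at 0.53 there and did not pass. On the other side Lmx1a, a factor of the midbrain floor plate, was at 0 to 0.107 with Npas1 and at 0.27 to 0.484 without it (-2.92 ± 0.425, adjusted p = 1.2e-07). Ebf2 was at 0 to 0.585 against 0.937 to 4.17 (-2.25 ± 0.285). Bnc2, Insc, Eya1, Sulf1, Adgrg6, Fyco1, Pdzrn3 and Anln lay between -2.51 and -2.12. Of these 10 genes, 2 had enough counts to be tested with matched depths, Bnc2 and Ebf2, and both passed. Of the other regional factors, 1 of 11 was higher with Npas1 and 6 were lower, a median of -0.88 beside -0.04 over all genes tested, and 0 of 5 NPAS1 relatives and partners passed (median 0.22). Lmo3 was higher (0.83) and Lmo1, Lmo4 and Tcf4 lower among 9 GATA and TAL1 partners (median -0.57), Pax5 was lower (1 of 8, median -0.17) among PAX and MEIS relatives, and Sox2 (1 of 5, median 0.07) in the RFX and SOXB list. Calb1, Calb2, Cck, Nos1 and Reln were lower among 9 peptides and markers (median -0.7), Glra1 and Glra3 were higher among 8 receptors (median 0.003), and no forebrain factor passed the filter. Of the 20 list genes called, 13 could be tested with matched depths and 4 passed, Glra1, Ebf2, Ebf3 and Tcf4. Some that did not pass had values close to those over all nuclei, such as Foxp1 (-0.91 matched, -0.88 over all), Nos1 (-0.77, -0.7) and Calb2 (-1.35, -1.56), and others did not, such as Reln (-0.32, -1.05) and Cck (-0.28, -0.84). Nr2f2 had its direction in 3 of 5 rats and Glra3, Lmo1, Lmo3, Lmo4 and Nos1 in 4 of 5. Leaving out rat 2, 3, 4 or 5 gave 168, 284, 225 and 310 genes. Without the rat as a block edgeR called 1 gene, Npas1 itself, and 0 others, with 434 genes at an unadjusted p under 0.05, and DESeq2 called 217. The part of depth and of oligodendrocyte RNA in these counts was not tested beyond the matched comparison.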

How the data were processed

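Nuclei of 5 rats were profiled with the 10x Genomics 3′ assay v3.1. The deposited matrices hold unfiltered UMI counts per gene and barcode, made by the authors with Cell Ranger (version 8.0.1 in the submitters' processing notes). The genome build is not given in the sources used here. Library totals ran from 10193355 to 88576210 UMIs, and median depth per nucleus from 1605.5 to 3526. The 9 factors, gene lists and tests were chosen with earlier results of these data known. Labels name the group saline, and the study describes drug-naive rats.

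Cell types were read per nucleus from marker lists: a class needed at least 2 markers and 2 times the next list's level, each relative to that list's 99th percentile over nuclei. Scrublet (scanpy 1.11.5) marked 8 of 22084 nuclei, so doublets were not removed, and an alternative without the top-scoring nuclei was added after seeing the data. Levels are UMIs per 10000 UMIs of a group, per rat. Thinning drew 1000 UMIs per nucleus. Gene-wide tests used edgeR 4.0.16 (quasi-likelihood, TMM, filterByExpr, Benjamini-Hochberg over all genes) on sums per rat and group, with DESeq2 1.42.0 as an alternative. On simulated counts with 200 genes changed by a log2 of 2, edgeR recovered 86.5% (GATA and PAX) and 86% (Npas1), with 3 and 4 false calls. The simulated counts held no rat effect, so they cannot check the use of the rat as a block. The SE printed with a log2 ratio is the size of that ratio divided by the square root of the F statistic of the edgeR test. The rat is a block because both groups come from the same animals, and deviations of the same rat correlated at 0.445 to 0.59 (GATA and PAX) and 0.313 to 0.469 (Npas1). The genes named are the 10 largest differences in each direction that passed and kept 1 direction in every rat, members and unnamed genes left out, and any gene of a fixed list that passed. Intervals cover counting error only. With the rat as a block, the edgeR p-values compare the 2 groups within rats, with variance estimates that draw on all genes. They do not measure a gene's own spread over the 5 rats alone. In the Npas1 comparison Nr2f2 passed this test (adjusted p = 0.00506) with its direction in 3 of 5 rats.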

Additional observations from a re-analysis of the deposited data

Results flagged for a closer look

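Of 36 sets of 5 rats examined (share and level of each factor in GABA nuclei and in other nuclei), 7 had a rat far from the remaining 4 by Dixon's criterion. Chance flags about 1 in 20 sets. In each of the 7 it was rat 3. Gata3 stood at 2.05 UMIs per 10000 in its GABA nuclei (0.206 to 0.312 elsewhere) and at 0.843 in its other nuclei (0.0341 to 0.0662), where 9.25% of nuclei held it (0.887% to 1.84%). Gata2 stood at 0.449 in GABA nuclei (0.0763 to 0.114) and at 0.229 in other nuclei (0.0216 to 0.0575), with 3.62% of other nuclei positive (0.754% to 1.51%). Rfx4 was in 1.46% of its other nuclei, below 4.78% to 6.02% in the remaining rats. Of the 184 other nuclei of rat 3 with Gata3, 34 held a serotonin gene (18.5%, against 2.55% of those without Gata3), and in the remaining rats the shares were 20% to 46.7% against 4.01% to 12.8%. The cause was not tested.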

How the results depend on the processing

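The mean share of GABA nuclei with any factor, 52.3%, became 67.3% with all 3 GABA genes required, 25.6% after thinning to 1000 UMIs and 30.1% with 2 UMIs required, and ran from 49.3% to 57.8% when each rat was left out. The ratio of observed to expected nuclei with both sets, 0.258, was 0.49 with no maximum of genes, 0.0431 with 2 UMIs required and 0.139 in nuclei typed as neurons, and 0.22 to 0.286 with each rat left out. The genes called between GATA and PAX nuclei, 559, became 159 with all 3 GABA genes (fewer nuclei), 859 without the filter on low counts, and 90 without the replicate block, with 340 to 751 when each rat was left out. The genes called by Npas1, 492, became 21 with all 3 GABA genes, 321 without nuclei typed as glia, 162 in nuclei typed as neurons, 10 with matched UMI totals (9 besides Npas1), 217 with DESeq2 and 1, Npas1 itself, without the replicate block, with 168 to 414 when each rat was left out. Except for the smaller groups named, the cause was not tested. The ratio of Rfx4 in GABA over other nuclei, log2 0.02, fell below 0 in 5 alternatives, to -0.75 without nuclei typed as glia, -0.28 without rat 3, -0.18 without nuclei with a serotonin gene, -0.06 without rat 5 and -0.0087 as a mean over nuclei. The co-detection ratio of Npas1 with the GATA set, 1.1, was 0.869 within depth bins, 0.841 in nuclei typed as neurons and 0.926 without rat 2, and that of Rfx4 with the paired box set, 1.13, was 0.884, 0.909 and 0.956. A factor with a low level, such as Gata2 or Sox14, is missed in most shallow nuclei, and alternatives that left a rat at 0 gave no ratio for that factor. Leaving out the nuclei with the highest Scrublet scores, those with a serotonin gene or all but those typed as neurons was chosen after seeing the data.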
